A study of Mus musculus with 6 samples.

Results

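The protein genes of the small (40S) subunit of the cytosolic ribosome were compared between mice given ethanol as newborns and mice given saline. A gene was counted where a row of the array's value table named it alone and its symbol was that of a small subunit protein, Rpsa and Fau included, and pseudogenes and the Rps6k kinases left out. This gave 26 genes, measured by 46 of 41345 rows, and the row with the highest mean over the 6 arrays stood for each gene. Of these, 24 were core genes of the subunit and 2 were the paralogues Rps4l and Rps27l. Rps2, Rps15a and Rps21 were only in rows that named several genes and were not analysed here.

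The small subunit binds messenger RNA, carries the decoding centre and, with initiation factors, finds the start codon. Its head and its body and platform are 2 lobes with the path of the messenger RNA between them. Most of these genes are transcribed at high levels in all cells, and their messenger RNAs begin with a terminal oligopyrimidine tract, through which mTOR signalling controls their translation. In neurons, ribosomes also lie in dendrites and axons, where translation near synapses contributes to plasticity.

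All animals were male C57BL/6J mice, an inbred strain. Ethanol pups were dosed under the skin at 2.5 g/kg, with 0.15 M NaCl as the vehicle, as 2 injections on each of postnatal days 4 and 7, and control pups, littermates matched for weight, were the saline group. There were 3 arrays per group, each holding RNA pooled from 3 mice, so that p-values measure the spread between pools. The labels gave the age at dissection as 21 days in 1 place and as day 70 in another. The tissue was labelled whole hippocampus, but the levels of some marker genes went against hippocampus alone. The median gene had a mean level of 7.10. Neurod6, Emx1 and Tbr1, transcription factors of telencephalic pyramidal neurons, had mean levels of 6.76, 6.39 and 5.74, and C1ql2, of dentate granule cells, had 6.47. Gabra6 and Cbln3, genes of cerebellar granule cells, and Car8, of Purkinje cells, had 12.17, 12.11 and 12.44. Camk2a, of excitatory forebrain neurons, and Prox1, of dentate granule cells, were above the median gene, at 9.76 and 8.18. So were the CA1 pyramidal cell markers Dcn, Wfs1 and Fibcd1, at 9.03, 8.72 and 7.26, and the dentate marker Stxbp6, at 7.68. The CA1 markers Mpped1 and Pou3f1, at 6.81 and 6.89, and the dentate markers Dsp and Lct, at 6.43 and 6.71, were below it, as was Tdo2, of the dentate, at 5.625. Probes differ in brightness, so these levels do not rank the transcripts.

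The tract could be looked for at the annotated starts. RefSeq (build GRCm38.p6) gave start regions for 22 of the 26 genes, and for each the 30 bases from 20 before to 10 after the annotated start were searched for the longest run of C and T. Capitals mark that run. The genes shown are 6 with a run at the start, the 2 with the largest differences between the groups (Rps13 and Rps28), and Rps4x, an example without a long run in the window.
Fau, chr19:6057927-6057956, + strand: ggacgtgcgcgcccccaCTTCTTCCTCTTT
Rps10, chr17:27635235-27635264, - strand: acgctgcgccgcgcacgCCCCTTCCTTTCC
Rps18, chr17:33955656-33955685, - strand: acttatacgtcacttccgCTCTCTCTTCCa
Rps6, chr4:86857358-86857387, - strand: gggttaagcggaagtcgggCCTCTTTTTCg
Rps27, chr3:90213639-90213668, - strand: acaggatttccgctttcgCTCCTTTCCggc
Rps24, chr14:24490658-24490687, + strand: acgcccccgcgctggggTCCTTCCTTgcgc
Rps13, chr7:116334181-116334210, - strand: cgcgcgagagcaaacgTCggtgagtggcgt
Rps28, chr17:33824553-33824582, - strand: TCCTgggtaccgcgtgcggtctcgcgagag
Rps4x, chrX:102189382-102189411, - strand: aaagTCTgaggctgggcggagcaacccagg
In Fau, Rps10, Rps18, Rps6, Rps27 and Rps24 a pyrimidine run of at least 7 bases lay at or beside the annotated start shown. In Rps13, Rps28 and Rps4x the window held no such run. A second annotated start of Rps24, not shown, had a longest run of 4 bases. The 22 genes had 26 start regions, as 3 genes had more than 1. Of these regions, 11 held a run of at least 7 bases in the window, or 42.3%, against 19.2% of 32851 start regions of all genes. Annotated starts can lie some bases from the start used, so a window without a run says only that these letters are not in it. The sequence CTTCCG, the core that ETS factors bind, was searched on both strands of the 300 bases of each region. It was in 17 of 26, or 65.4%, against 16.9% of all regions. AAGATGG, a core of YY1 sites, was in 19.2% against 6.3%, and TATAAA, the TATA box, was in 3.8% against 13.6%.

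No small subunit gene passed the test between ethanol and saline. Limma, with Benjamini-Hochberg adjustment over all rows, called 0 of the 26 genes at an adjusted p under 0.05, where it called 0.00% of all rows, and the lowest adjusted p of a member was 0.857. At an unadjusted p under 0.05 there were 0 of 26 as well, where 1.20% of 22180 genes lay higher and 1.98% lower. Rps13 was nearest, at an unadjusted p of 0.0540, and it fell under 0.05 in 8 of 18 other settings in limma, among them median centring (0.0327), the replicate block (0.0303) and the fit without saline array 2 (0.0073). Rps28 did so in 2, median centring (0.0428) and the fit without saline array 2 (0.0255). Fau and Rps24 each did so with 1 array left out. Rps18 did so in 2 settings, which both took the same other row of the gene. Among the members with values by array given below, none had an adjusted p under 0.603 in the settings that used the gene's brightest row. By sign alone, 23 of 26 genes had a higher mean in ethanol and 3 a lower one, where 57.2% of all genes were higher and 42.8% lower. The median difference was 0.07 on the log2 scale, against 0.02 over all genes. After cyclic loess, which takes out trends with brightness, 20 of 26 were higher with a median of 0.05.

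**Figure D1:**
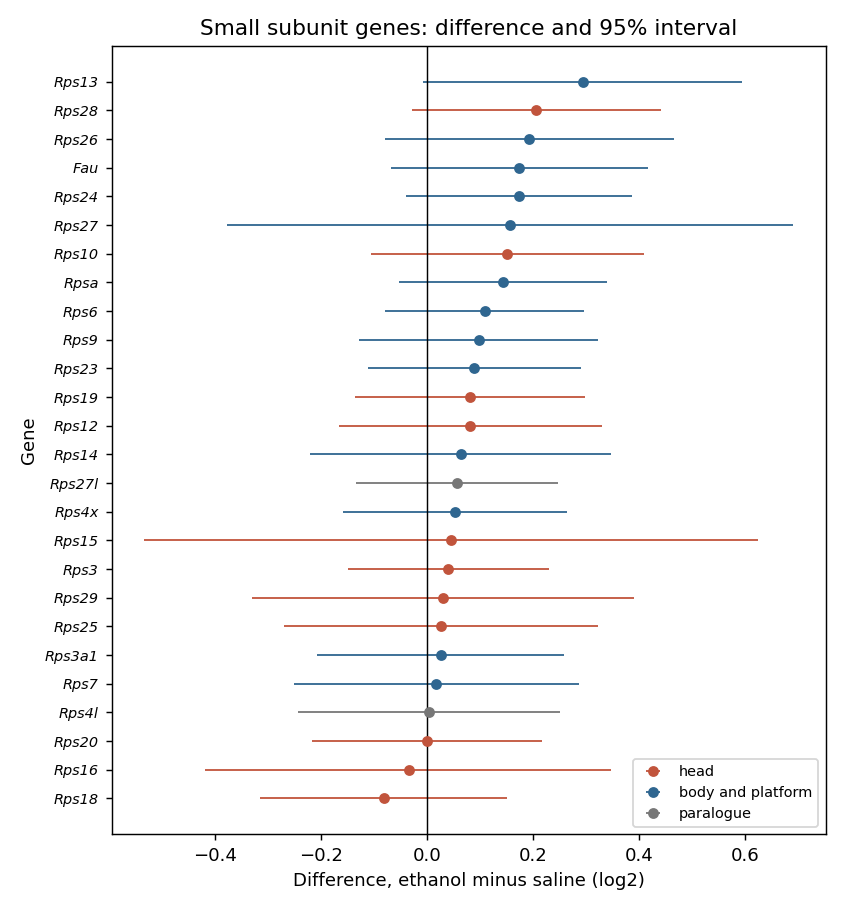
Difference between ethanol and saline (log2) for each of the 26 genes, from the lowest to the highest, with the 95% interval of the limma fit, 3 arrays per group. Colours give the place of the protein in the subunit. All 26 intervals hold 0, and the points run from -0.08 for Rps18 to 0.29 for Rps13.

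The differences were small beside the error of a single gene. The median standard error was 0.10, the median distance from the estimate to the end of its 95% interval was 0.24, and 17 of 26 differences were under 0.1 in size.

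The arrays of a group did not lie together. Ethanol array 2 held the highest level of 16 of the 26 genes and saline array 2 the lowest of 10. Relative to each gene's mean over the arrays, the median small subunit gene stood at 0.06, 0.13 and -0.06 on ethanol arrays 1 to 3 and at -0.03, -0.09 and 0.00 on saline arrays 1 to 3. The groups overlapped, as ethanol array 3 lay below saline arrays 1 and 3. Without ethanol array 2 and saline array 2, 14 of 26 genes were higher and the median difference was 0.01. As these had the highest and the lowest of those medians, leaving them out lowers the difference by construction. The median of the brightest 10% of all genes went from 0.09 to 0.02 with them left out. Leaving out saline array 2 alone gave 17 higher and a median of 0.02, and leaving out ethanol array 2 alone gave 20 and 0.04. Without ethanol array 3, the lowest of its group, the median was 0.13 with 23 higher.

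**Figure D2:**
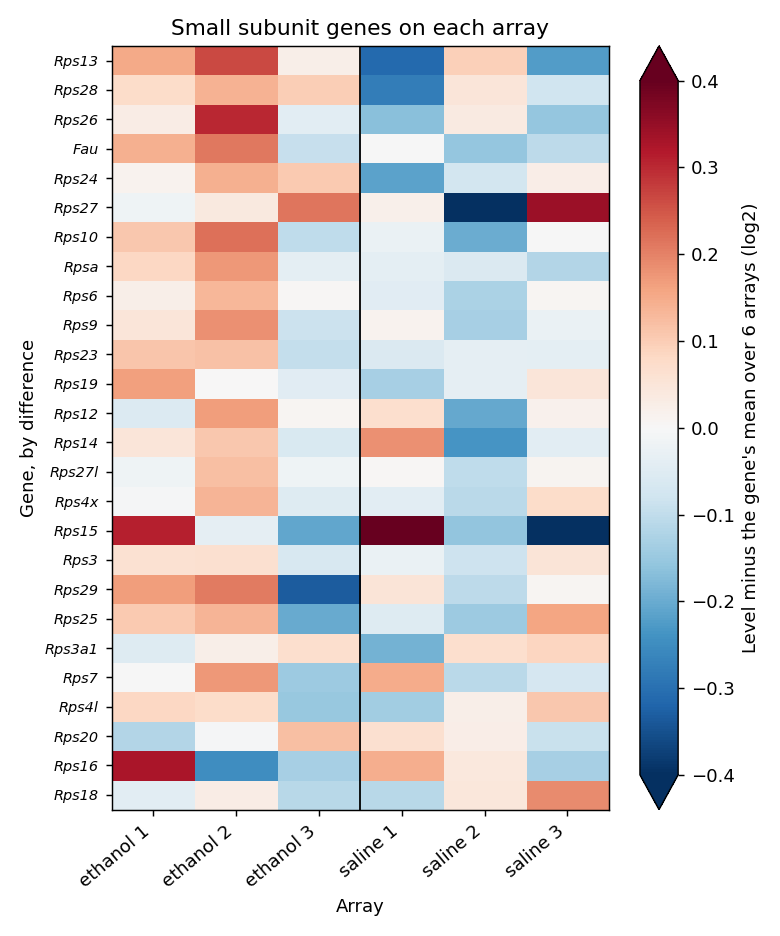
Level of each gene on each array minus the gene's mean over the 6 arrays (log2), in the order of the differences, with ethanol left of the line and saline right of it. Ethanol array 2 is red for most genes, with Rps16 and Rps19 among those that are not, and saline array 2 is blue in many rows, most of all for Rps27.

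Bright genes in general moved with the same arrays. Genes were put in 10 equal bins (deciles) by mean level. In the brightest decile, small subunit genes left out, 2050 of 2210, or 92.8%, were higher in ethanol, with a median difference of 0.09. On the arrays this decile stood at 0.03, 0.09 and 0.00 in ethanol and at 0.02, -0.11 and -0.03 in saline. Ethanol array 2 had the widest spread of values over all rows, with an SD of 2.03, and saline array 2 the narrowest, with 1.97, the other arrays lying from 1.98 to 2.02. The part of this trend in the small subunit differences was not tested.

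**Figure D3:**
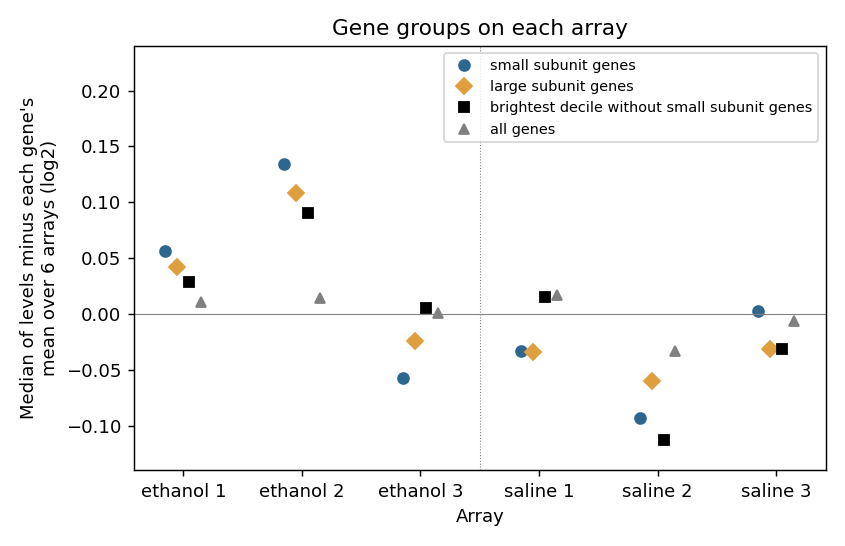
Median over each gene group of the level minus the gene's mean over the 6 arrays (log2), per array, for the small subunit genes, the large subunit genes, the brightest decile of genes without the small subunit genes, and all genes. The first 3 groups are highest on ethanol array 2 and lowest on saline array 2, and all genes together vary least.

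There were 8 small subunit genes in that decile, and 18 in the others. The 8 were all higher in ethanol, with a median of 0.13. Of the 18, 15 were higher, with a median of 0.05. When the median difference of the genes in the same decile of brightness was taken off each gene, 18 of 26 lay above 0 and 8 below, and the median was 0.03.

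**Figure D4:**
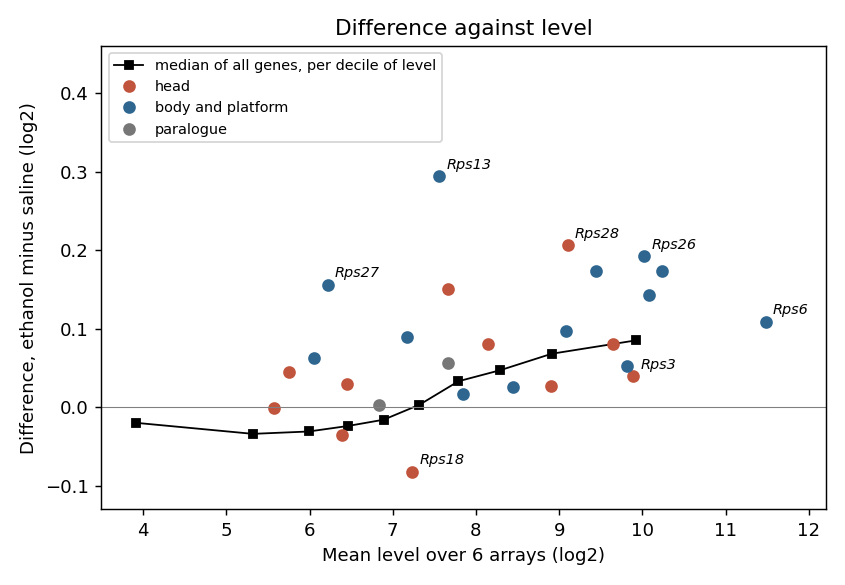
Difference between ethanol and saline against the mean level over the 6 arrays, both log2. Circles are small subunit genes, coloured by place in the subunit, and squares joined by a line are the medians of all genes in each decile of level, which run from -0.03 to 0.09. Rps13 and Rps28 lie above the line and Rps18 below it.

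The body and platform proteins had 13 measured genes, all higher in ethanol, with a median difference of 0.11. Whether they differed from the head was not tested. Their median level over the 6 arrays was 9.09, against 7.66 in the head, and over all genes the median difference went from -0.02 in the dimmest decile of level to 0.09 in the brightest.

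Rps13, a core protein that binds the central domain of the small subunit's RNA, had the largest difference. It measured 7.71, 7.82 and 7.58 on ethanol arrays 1 to 3 and 7.24, 7.65 and 7.33 on saline arrays 1 to 3. Saline array 2 lay above ethanol array 3, so the groups overlapped, and the other saline arrays were lower than any ethanol array. The difference was 0.29 ± 0.13 (log2 ± SE, 3 arrays against 3; adjusted p = 0.857 in limma). Leaving out 1 array at a time gave 0.21 to 0.42. On GRCm38 the gene lies on chromosome 7 from 116331507 to 116334190.

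Rps26 and Fau sit along the messenger RNA channel, Rps26 at its exit and the Fau product near its entry. Fau is made as a fusion of a ubiquitin-like protein with a ribosomal protein, which are then cut apart. Rps26 stood at 10.05, 10.32 and 9.98 in ethanol and at 9.85, 10.06 and 9.87 in saline, a difference of 0.19 ± 0.11 (SE; adjusted p = 0.857 in limma). Saline array 2 lay above ethanol arrays 1 and 3. Fau stood at 10.37, 10.44 and 10.14 in ethanol and at 10.23, 10.08 and 10.13 in saline, a difference of 0.17 ± 0.10 (SE; adjusted p = 0.857 in limma). Saline array 1 lay above ethanol array 3, so its groups overlapped too.

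Rps24, whose human counterpart is mutated in some patients with Diamond-Blackfan anaemia, measured 9.46, 9.58 and 9.55 in ethanol and 9.23, 9.37 and 9.47 in saline. The highest saline array lay just above the lowest ethanol array, and the difference was 0.17 ± 0.09 (SE; adjusted p = 0.857 in limma). Rpsa, known also as a laminin receptor at the cell surface, measured 10.16, 10.25 and 10.04 in ethanol and 10.04, 10.02 and 9.96 in saline. Its difference was 0.14 ± 0.08 (SE; adjusted p = 0.857 in limma), and ethanol array 3 and saline array 1 held the same level to 2 decimals.

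Rps6 is the protein that S6 kinases phosphorylate downstream of mTOR, and its phosphorylated form is widely used as a sign of neuronal activity, which levels of its messenger RNA do not show. It stood at 11.50, 11.61 and 11.49 in ethanol and at 11.44, 11.35 and 11.49 in saline. Saline array 3 was level with ethanol array 3, and the difference was 0.11 ± 0.08 (SE; adjusted p = 0.864 in limma). Rps4x, an X-linked gene, was at 9.81, 9.95 and 9.76 in ethanol and at 9.77, 9.70 and 9.88 in saline. Its difference of 0.05 ± 0.09 (SE) turned to -0.02 both under quantile normalization and after cyclic loess.

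The other body genes had differences from 0.02 for Rps7 to 0.16 for Rps27. Rps27, a zinc finger protein, had the widest spread of them, at 6.20, 6.26 and 6.43 in ethanol and 6.24, 5.62 and 6.56 in saline. Saline array 2 alone was low, and without it the difference went from 0.16 to -0.10. Rps7 was at 7.84, 8.02 and 7.70 in ethanol and 7.99, 7.74 and 7.78 in saline, with groups that overlapped throughout. Rps9, which helps to keep decoding accurate, was at 0.10 ± 0.10 (difference ± SE), Rps23, a protein of the decoding centre, at 0.09 ± 0.09, Rps14, which lines the platform, at 0.06 ± 0.12 and Rps3a1, which lies near the exit of the messenger RNA, at 0.03 ± 0.10.

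Among the 11 measured head genes, 8 were higher and 3 lower in ethanol, with a median difference of 0.04. The head turns during translocation and holds contacts to transfer RNA.

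Rps28 was the 1 gene of the 26 whose groups did not overlap, where 5.74% of all genes lay wholly higher in ethanol and 4.72% wholly lower. A small head protein near the messenger RNA exit, it measured 9.18, 9.24 and 9.20 in ethanol and 8.82, 9.15 and 9.02 in saline. All ethanol arrays were above all saline arrays, but saline array 2 was lower than ethanol array 1 by less than the saline SD of 0.16. Its difference was 0.21 ± 0.10 (SE; adjusted p = 0.857 in limma), and leaving out 1 array at a time gave 0.12 to 0.28. An exact permutation test of 3 against 3 cannot go below 0.1. The gene lies on chromosome 17 from 33823036 to 33824562.

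Rps3 lines the entry of the messenger RNA channel and Rps19 takes part in maturing the small subunit's RNA; the human RPS19 is the gene most often mutated in Diamond-Blackfan anaemia. Rps3 stood at 9.95, 9.95 and 9.82 in ethanol and 9.86, 9.81 and 9.94 in saline. Rps19 stood at 8.31, 8.15 and 8.10 in ethanol and 8.01, 8.11 and 8.19 in saline. Both overlapped between the groups, with differences of 0.04 ± 0.08 and 0.08 ± 0.09 (SE), and that of Rps3 turned to -0.03 under quantile normalization and -0.04 after cyclic loess.

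The lower genes were Rps18, Rps16 and Rps20, all of the head. Rps18 reaches towards the large subunit, Rps16 touches transfer RNA in the P site, and Rps20 is a target of the ubiquitin ligase that marks collided ribosomes. Rps18 stood at 7.19, 7.26 and 7.12 in ethanol and 7.12, 7.28 and 7.42 in saline, a difference of -0.08 ± 0.10 (SE; adjusted p = 0.904 in limma) that stayed below 0 under each scaling and with each array left out. Rps16 was at 6.72, 6.15 and 6.26 in ethanol and 6.54, 6.44 and 6.26 in saline, and its -0.04 ± 0.16 turned to 0.01 under quantile normalization. Ethanol array 1 held its highest value and ethanol array 2 its lowest. Rps20 was at 5.46, 5.57 and 5.69 in ethanol and 5.64, 5.60 and 5.49 in saline, a difference of -0.00 ± 0.09.

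The remaining head genes were Rps10 at 0.15 ± 0.11 (difference ± SE), Rps12 at 0.08 ± 0.10, Rps15 at 0.05 ± 0.24, Rps29 at 0.03 ± 0.15 and Rps25 at 0.03 ± 0.12. Rps10, a target of the same ubiquitin ligase, was highest on ethanol array 2, at 7.89, and lowest on saline array 2, at 7.47. Rps15, with a tail that reaches towards the decoding centre, spread by 0.90 over the arrays, from 5.34 on saline array 3 to 6.25 on saline array 1.

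The paralogues differed little. Rps27l, a copy of Rps27 known as a target of p53, stood at 7.65, 7.79 and 7.65 in ethanol and 7.68, 7.57 and 7.68 in saline, a difference of 0.06 ± 0.08 (SE; 95% interval -0.13 to 0.25). Rps4l, a copy of Rps4x, stood at 6.92, 6.91 and 6.68 in ethanol and 6.69, 6.86 and 6.94 in saline, a difference of 0.00 ± 0.10 (SE; 95% interval -0.24 to 0.25). Of 13 measured genes of p53 and its targets, 7 were higher and 6 lower in ethanol (median 0.00). Ccng1, a p53 target, was at 0.21 ± 0.09 and Zmat3, an RNA-binding target, at 0.16 ± 0.09.

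Rows of 1 gene did not always give the same answer. For 11 of the 26 genes more than 1 row named the gene alone. Of the 20 rows not kept, 1 held the same values as the kept row of Rps19 and 5 repeated another row of Rps12, which left 14 distinct rows. Of these, 9 had the sign of the kept row and 5 the opposite one, 8 were higher in ethanol, and their median difference was 0.02.

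Row numbers on this array run along the chromosomes: of 23328 rows naming 1 gene with a RefSeq position, 98.2% had most of their nearest 20 named rows on their own chromosome. Only 17 of the 26 kept rows did. The kept rows of Fau, Rps18, Rps19, Rps24, Rps26, Rps28, Rps3a1, Rps6 and Rpsa lay elsewhere. That of Rps6, a gene of chromosome 4, had 20 of 20 neighbours on chromosome 2. That of Rps28, of chromosome 17, had 20 of 20 on chromosome 5, and that of Rps26, of chromosome 10, had 20 of 20 on chromosome 8. Those of Rps18 and Rps24 had neighbours on mixed chromosomes, with 9 and 8 of 20 on the commonest, chromosome 13. For Rps24, 5 of 20 were on its own chromosome 14. Ribosomal protein genes are known for many processed pseudogenes spread over the genome, whose sequence can be close to that of the parent. Whether these rows read such copies, the parent gene or both was not tested.

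For 8 of these 9 genes, Rps6 being the exception, another row lay among rows of the gene's own chromosome, and its difference was below that of the kept row in 8 of 8. The median was 0.16 over the kept rows of the 8 genes and -0.10 over the others, of which 3 were higher and 5 lower in ethanol. The rule takes the brightest row, so the second set was dimmer. Its mean levels ran from 3.97 for Rps26 and 4.73 for Rps28 to 7.89 for Rpsa. The median level in the dimmest decile of genes was 3.92, so the lowest of these rows held little signal. Rps28 was at -0.14 ± 0.15 in the row on its chromosome (difference ± SE), with 4.41, 4.97 and 4.60 in ethanol and 4.70, 4.76 and 4.94 in saline. There its groups overlapped. Rps26 was at -0.14 ± 0.10 in such a row, with 4.05, 3.81 and 3.84 in ethanol and 3.95, 4.09 and 4.08 in saline, and Rpsa at -0.06 ± 0.09. For Rps18 that row gave -0.26 ± 0.10, at 6.33, 6.14 and 6.30 in ethanol and 6.34, 6.56 and 6.64 in saline (unadjusted p = 0.0440, adjusted p = 0.857 in limma), so that its groups did not overlap.

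A second row of Rps24, at 9.02, 9.17 and 8.98 in ethanol and 8.71, 8.86 and 8.91 in saline, had a difference of 0.23 ± 0.09 (unadjusted p = 0.0442, adjusted p = 0.857 in limma). Its groups did not overlap, with ethanol higher. The rows of Rps18 and Rps24 were picked out after their values were seen. A second row of Rps20 was at 0.58 ± 0.29 (SE), but its saline arrays ran from 4.77 to 5.73 and its ethanol arrays from 5.38 to 6.22. With the brightest row on its own chromosome for each of 25 genes, 18 were higher and the median difference was 0.04.

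**Figure D5:**
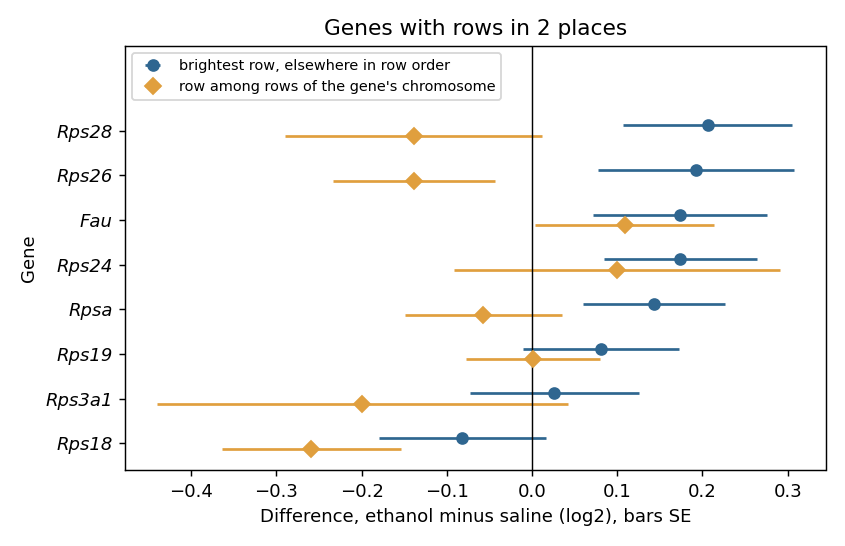
Difference between ethanol and saline (log2, bars are the SE of the limma fit) for 8 genes with rows in different places. Circles are the brightest row, which did not lie among rows of the gene's own chromosome, and diamonds are a row that did. The diamond lies left of the circle for each gene, and those of Rps28, Rps26, Rpsa, Rps3a1 and Rps18 lie below 0.

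The genes varied together only in part. Over the 6 arrays the median correlation (Pearson's r) between pairs of small subunit genes was 0.36, and 235 of 325 pairs were positive. With the group means taken off it was 0.28. Among the 8 genes in the brightest decile it was 0.61 over the 6 arrays, against 0.49 between other genes of that decile, and among the 18 others it was 0.14. With the group means taken off these were 0.44, 0.38 and 0.20. Between large subunit genes the median was 0.29 over the 6 arrays and 0.21 with the group means taken off. These pairs share the arrays and their scaling, so the values describe these arrays only. In pooled tissue, a change in which cells are present and a change of RNA per cell cannot be told apart.

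Genes that work with the small subunit had differences of like size. Of all genes 57.2% were higher in ethanol, and of the brightest decile without the small subunit genes 92.8%. The lists were brighter than the median gene at 7.10. Their median levels were 8.06 for assembly factors, 9.64 for translation factors, 9.03 for mTOR signalling and 8.15 for quality control. Of 47 measured factors that assemble it, 37 were higher and 10 lower in ethanol (median 0.06), with Abt1 at 0.18 ± 0.08 (difference ± SE) and Dimt1, a methyltransferase of the small subunit's RNA, at 0.17 ± 0.09. Of 28 translation factors that bind it, 27 were higher (median 0.08), with Abce1, which splits ribosomes, at 0.18 ± 0.10 and Eif4a1, an RNA helicase of initiation, at 0.16 ± 0.09. Of 26 genes of mTOR and S6 kinase signalling, 24 were higher (median 0.07), with Lamtor2, a part of the complex that holds mTOR at lysosomes, at 0.19 ± 0.09 and Rheb, its activator, at 0.15 ± 0.08. Quality control of stalled ribosomes had 12 of 14 higher (median 0.06), with G3bp1 and the ligase Zfp598 both at 0.17, ± 0.08 and ± 0.10. None of these genes was called by limma, and 0 of each list had an unadjusted p under 0.05.

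Other genes with a terminal oligopyrimidine tract had 16 of 18 higher (median 0.04), and 1 of them, the intermediate filament Vim, had an unadjusted p under 0.05, at 0.19 ± 0.07 (adjusted p = 0.857 in limma); Snhg6, a host of small nucleolar RNA, was at 0.20 ± 0.12. Within the small subunit, the 11 genes with a pyrimidine run of at least 7 bases had a median difference of 0.11 and the 11 with a shorter one 0.08, with 10 higher in each. Large subunit genes had 34 of 42 higher (median 0.10). Rpl34 was at 0.23 ± 0.09 and the muscle form Rpl3l at -0.25 ± 0.10. Mitochondrial small subunit genes, which serve the separate ribosome of mitochondria, had 25 of 28 higher (median 0.05), with Mrps16 at 0.24 ± 0.07 and Mrps14 at -0.22 ± 0.10. All genes named here had an adjusted p of 0.857 or above in limma.

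Markers of cell types gave these values beside the small subunit genes. Cerebellar neuron markers had 8 of 10 higher in ethanol, and their summed signal (log2) was 14.88 to 14.92 in ethanol and 14.81 to 14.83 in saline. Astrocyte markers had 7 of 7 higher, at 14.09 to 14.20 and 13.98 to 14.13, and endothelial markers 5 of 5, at 10.55 to 10.71 and 10.45 to 10.69. Oligodendrocyte markers had 5 of 6 higher (13.23 to 13.58 and 13.26 to 13.48), microglia 3 of 6 (10.53 to 10.59 and 10.47 to 10.66), CA1 pyramidal cells 2 of 5 (10.28 to 10.45 and 10.33 to 10.43), dentate granule cells 3 of 6 (9.66 to 9.73 and 9.61 to 9.78) and telencephalic pyramidal neurons 1 of 5 (10.23 to 10.26 and 10.15 to 10.57). The summed cerebellar signal was the 1 of these 8 whose groups did not overlap. In the brightest decile 286 of 2210 single genes lay wholly higher in ethanol and 8 wholly lower. Of single markers, chosen for mention after their values were seen, Aqp4, the astrocyte water channel, was at 0.26 ± 0.07 (difference ± SE; unadjusted p = 0.00869, adjusted p = 0.857 in limma) and Fibcd1, of CA1, at -0.22 ± 0.08 (unadjusted p = 0.0301, adjusted p = 0.857 in limma), both with groups that did not overlap. Cbln3 and Zic1, of cerebellar neurons, also had groups that did not overlap, with ethanol higher. The other CA1 markers measured lay from -0.06 for Pou3f1 to 0.04 for Dcn. Of all genes 5.74% lay wholly higher in ethanol and 4.72% wholly lower. Array values have no true 0, and the part of these cell type markers in the small subunit differences was not tested.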

How the data were processed

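Total RNA, 200 ng per array, was labelled with biotin and hybridized to Affymetrix whole-transcript arrays, per the labels' protocols. The deposited table held log2 values made by the authors, 1 per row and array; for background correction, summarization and normalization the method is not given in the sources used here. The build mm 10 was named in the submitters' processing notes. The log2 scale was read from the values, with array medians of 6.55 to 6.66. The platform annotation names 1 gene for 23521 rows, several for 1814 and none here for 16010. Gene positions and start regions were those of RefSeq for GRCm38.p6.

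All rows entered 1 limma fit (version 3.58.1, R 4.3.3; lmFit, then eBayes) of ethanol against saline, two-sided and without covariates or filters, with Benjamini-Hochberg adjustment over all rows, and the fit was tested on simulated data. Standard errors and 95% intervals are those of this fit, with 4 residual and 2.94 prior degrees of freedom. Lists are described by counts and medians over 22180 genes, 1 row each, with no list test. Values by array are given for the 5 members with the largest difference in each direction, for any with an unadjusted p under 0.05, and for Rps6, Rpsa, Fau, Rps3, Rps19, Rps27, Rps27l, Rps4x and Rps4l; of each pathway list, the 2 genes with the smallest p are named. The members and lists were chosen with earlier results of these data known. The number of arrays limits the precision.

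Whether equal array numbers pair the arrays was checked on deviations from the group means: the correlations were 0.10, -0.06 and 0.04 for numbers 1 to 3, so the numbers were not taken as pairs. Alternatives covered scaling, the prior, weights, filters, the replicate block, the row per gene and left-out arrays.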

Additional observations from a re-analysis of the deposited data

How the results depend on the processing

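Limma called 0 of the small subunit genes in each of 18 other settings, and their median difference stayed above 0 in all of them, from 0.01 to 0.13. Calls over all rows fitted were counted in 15 of these settings, and limma called 0 in each but 1: leaving out 1 array at a time gave 0 to 1. Higher genes numbered 14 of 26 without ethanol 2 and saline 2, and 17 to 23 with 1 array left out, with medians of 0.02 to 0.13. With the replicate number as a block there were 0 calls, and 23 genes were higher with a median of 0.07; the block changed no call. The array numbers are not known to pair the arrays, and same-numbered arrays correlated at 0.10, -0.06 and 0.04. Choosing the row on the gene's own chromosome was an alternative chosen after seeing the data.

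In the settings with the kept row, signs turned for 8 of the 17 members followed here, among them Rps27, at 0.156 on all arrays. Rps28, Rps26 and Rpsa turned in the row on the gene's own chromosome, at -0.139, -0.138 and -0.057. Under quantile normalization Rps16 stood at 0.009, Rps20 at 0.047, Rps3 at -0.028 and Rps4x at -0.018. Median centring gave Rps16 0.004 and Rps20 0.038; it lifted the median over all rows by construction, to 0.04 from 0.00. Cyclic loess gave Rps16 0.001, Rps20 0.045, Rps3 -0.038, Rps4x -0.024 and Rps7 -0.001, and array weights gave Rps16 0.034 and Rps4l -0.004. Without ethanol 2 and saline 2 the values were 0.092 for Rps16, 0.014 for Rps20, -0.084 for Rps27, -0.026 for Rps27l, -0.013 for Rps3, -0.019 for Rps4l, -0.044 for Rps4x and -0.114 for Rps7. With 1 array left out, Rps16 ranged from -0.208 to 0.080, Rps20 from -0.060 to 0.058, Rps27 from -0.103 to 0.366, Rps4l from -0.065 to 0.080, Rps4x from -0.003 to 0.102 and Rps7 from -0.065 to 0.096. The cause of these turns was not tested. No difference of these 17 members had an adjusted p under 0.603 in limma under any setting with the kept row.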
